A study of Mus musculus with 6 samples.

Results

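The 30 genes described here are expressed more strongly in some subfields of the hippocampus than in others, and they were listed by name as markers of dentate granule cells and of the pyramidal neurons of CA1, CA2 and CA3. Each is the single gene symbol of at least 1 probe set in the array annotation, and where a gene had several probe sets, the one with the highest mean was used. They are 30 of 19938 genes measured. By the field in which each gene is best known, 8 mark dentate granule cells, 3 mark both dentate and CA1, 6 mark CA1, 3 mark CA2, 4 mark CA3, and 6 are expressed across several CA fields.

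Whole-hippocampus RNA came from male C57BL/6J mice at postnatal day (PD) 70. As pups, the animals were injected under the skin 2 times on each of PD 4 and PD 7, either with ethanol at 2.5 g/kg per injection, dissolved in saline, or with saline alone. Littermate pups were divided between the treatments. Each array carried the mixed RNA of 3 males from different litters. With 3 such pools per treatment, 6 arrays represent 18 mice. The injections model binge drinking while hippocampal synapses form, and the comparison asks whether the neuron types of each field differed in expression in the adult. A pool averages its animals, so the spread between arrays is a spread between pools, not between mice.

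The hippocampal circuit runs from the granule cells of the dentate gyrus, through their mossy fibres, to the pyramidal neurons of CA3, and from there by Schaffer collaterals to CA1. CA2, a narrow field between CA3 and CA1, has a gene programme of its own and is known for its part in social memory. Granule cells go on being generated after birth, whereas pyramidal neurons are made before birth. A marker read in the whole hippocampus reflects both the share of its cells in the tissue and its RNA per cell, and in these bulk samples fewer cells of a type and less RNA per cell cannot be told apart.

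The deposited values are log2 intensities. Arrays correlated at 0.998 or more, and their medians lay between 5.84 and 5.89. All 30 markers had a mean above 5.37, the level exceeded by only 5% of 1190 receptor genes for smell and pheromones, which are largely confined to sensory epithelia. Their means over the 6 arrays ran from 6.62 to 12.3, and values of different genes are not compared because probes differ in brightness. 29 of the 30 genes had 1 probe set.

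No field marker passed the test of ethanol against saline (limma, 0 of 30 past an unadjusted p of 0.05, against 5.22% of all genes, and 0 of 30 after adjustment over all probe sets tested, with a lowest adjusted p of 0.931). The methods name an analysis of variance, and its equal-variance form for 2 groups, called the methods' t-test here, gave 0 of 30 as well, against 5.04% of all genes. Differences ran from -0.09 for Lct to 0.13 for Amigo2 on the log2 scale, and 13 of the genes lay above the saline mean and 17 below it, where 50.1% of all genes lay above. The median difference was -0.0037 for the markers and 0.00014 for all genes, and the median size of a difference was 0.035 and 0.037. The 95% confidence interval of 27 genes lay within 1.2-fold in either direction, and over all 30 the bounds reached 0.827-fold and 1.28-fold. The exceptions were Lct, whose lower bound was 0.827-fold, and Spink8 and Amigo2, whose upper bounds were 1.28-fold and 1.22-fold. Leaving out saline pool 2 brought 3 genes past the unadjusted threshold, against 5.03% of all genes, with Spink8 at 0.23, Amigo2 at 0.18 and Pcp4 at 0.12. Leaving out ethanol pool 1 brought 1 past it, C1ql2 at -0.12, against 6.21% of all genes.

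**Figure D1:**
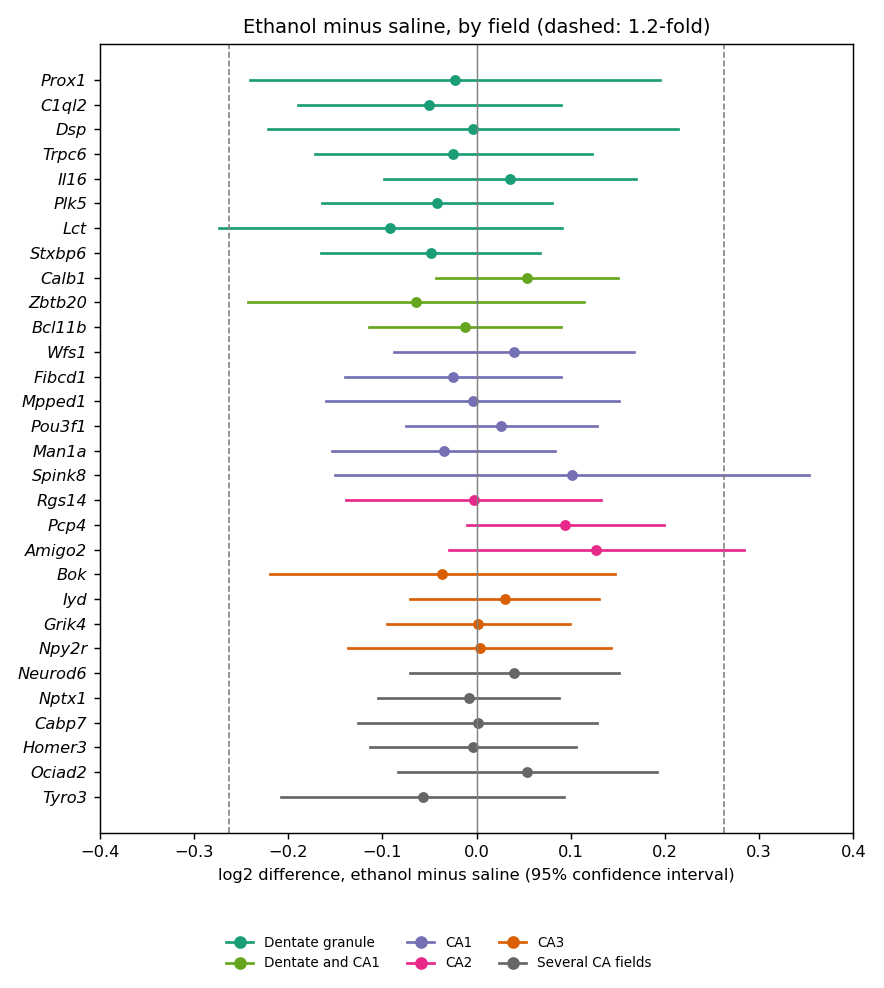
Log2 difference of each of the 30 markers, ethanol minus saline, on the horizontal axis, with its 95% confidence interval from limma over 3 pools per group, coloured by field. Every interval includes 0, and 27 of 30 lie between the dashed lines at 1.2-fold.

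No dentate granule marker passed the test, and most had their highest ethanol value in pool 1 and their lowest in pool 3. Prox1, the homeobox transcription factor that sets and keeps granule cell identity, read 9.87, 9.80 and 9.86 in saline pools 1, 2 and 3 and 9.96, 9.93 and 9.57 in ethanol pools 1, 2 and 3. Dsp, desmoplakin of the desmosome, read 8.36, 8.34 and 8.39 in saline and 8.58, 8.37 and 8.14 in ethanol. In both genes the saline pools lay close together, between the highest and the lowest ethanol pool. The standard deviation was 0.04 in saline and 0.22 in ethanol for Prox1, and 0.03 and 0.22 for Dsp. The group means differed by -0.02 ± 0.10 (SE, n = 3 pools per group; limma, adjusted p = 0.990) for Prox1 and by -0.0035 ± 0.10 (limma, adjusted p = 0.999) for Dsp.

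The bases upstream of the start of these genes, of 250 each, are shown because the values of both were lowest in the same ethanol pool and highest in the same one. Plk5, Lct, Stxbp6 and Zbtb20 had the same order of ethanol pools, so it is not particular to Prox1 and Dsp. The bases are from RefSeq on GRCm38.p6, written 5′ to 3′ on the strand of the gene. Prox1 lies on the minus strand at chr1:190170828-190171077 (the first of 2 starts listed) and Dsp on the plus strand at chr13:38151044-38151293. Capitals mark CAGATG, an E-box of the kind bound by neuronal basic helix-loop-helix factors, or CCGCCC, a GC box, each on either strand (CATCTG and GGGCGG). The motifs share no position.
Prox1: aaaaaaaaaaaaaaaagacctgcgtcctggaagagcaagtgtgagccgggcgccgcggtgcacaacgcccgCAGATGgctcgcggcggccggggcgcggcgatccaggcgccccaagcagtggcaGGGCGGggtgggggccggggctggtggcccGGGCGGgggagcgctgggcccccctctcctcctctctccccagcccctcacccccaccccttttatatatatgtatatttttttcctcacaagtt
Dsp: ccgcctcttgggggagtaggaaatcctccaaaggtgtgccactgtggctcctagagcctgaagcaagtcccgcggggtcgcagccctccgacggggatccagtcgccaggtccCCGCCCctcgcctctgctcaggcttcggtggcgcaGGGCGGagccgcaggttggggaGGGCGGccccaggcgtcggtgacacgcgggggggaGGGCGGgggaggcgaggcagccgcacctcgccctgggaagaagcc
The Prox1 window holds 1 E-box and 2 GC boxes, and the Dsp window holds 0 E-boxes and 4 GC boxes. Of all 32851 promoter entries, 17.2% hold the E-box and 35.7% the GC box. Of the 25 markers with an entry, 4 hold the E-box and 15 the GC box in at least 1 entry. A gene can have several entries, as Prox1 does, so entries and genes are unlike units and their shares are not compared. These counts cover each entry in full, of which the printed windows are the first 250 bases. The matches describe letters in the sequences alone.

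The other granule cell markers had smaller spreads. C1ql2, a secreted protein of mossy fibre synapses, read 9.94, 9.99 and 9.99 in saline and 10.06, 9.85 and 9.85 in ethanol, a difference of -0.05 ± 0.06. Lct, lactase, which marks granule cells in the mouse brain, read 8.92, 9.16 and 9.09 in saline and 9.07, 9.01 and 8.82 in ethanol. At -0.09 ± 0.08 (limma, adjusted p = 0.942) this was the largest difference among the granule cell markers, and the groups overlapped because saline pool 1 was also low. Stxbp6, the SNARE-binding protein amisyn, read 10.32, 10.42 and 10.43 in saline and 10.41, 10.34 and 10.27 in ethanol. Its difference of -0.05 ± 0.05 was within the range of the pools. Il16, an interleukin precursor with a neuronal form, was the only granule cell marker with an ethanol mean above saline, at 0.04 ± 0.06. The cation channel Trpc6 at -0.02 ± 0.06 and the polo-like kinase Plk5 at -0.04 ± 0.05 completed the group, which had a median difference of -0.03, with 1 of 8 above the saline mean.

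Counting positions within each treatment group, 7 of 8 granule cell markers were highest in ethanol pool 1, where 32.6% of all genes were highest, and 6 of 8 were lowest in ethanol pool 3, where 33% of all genes were lowest. None of the 8 was highest in ethanol pool 3, against 35.6%. Il16, highest in ethanol pool 2, and C1ql2 and Trpc6, lowest in that pool, were the exceptions. In the saline group 5 of 8 were lowest in pool 1, against 36.8% of all genes. As the mean of the 8 genes, from the saline mean, the saline pools lay at -0.06, 0.02 and 0.03 and the ethanol pools at 0.06, -0.01 and -0.15. Genes of one array share its RNA and its processing, so these counts describe the pools and are not independent of each other.

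The 3 genes that mark both dentate and CA1 neurons were, like most granule cell markers, lowest of the ethanol group in pool 3, in 3 of 3 genes. Zbtb20, a zinc finger repressor needed for the hippocampal fields to form, read 11.33, 11.18 and 11.21 in saline and 11.32, 11.20 and 11.01 in ethanol, a difference of -0.06 ± 0.08. Its dimmer probe set gave -0.02 ± 0.05. Calb1, the calcium buffer calbindin, read 11.20, 11.30 and 11.24 in saline and 11.30, 11.33 and 11.27 in ethanol, with a difference of 0.05 ± 0.04 (limma, adjusted p = 0.937). The calbindin pools overlapped. Bcl11b, a transcription factor of projection neurons also called Ctip2, read 8.81, 8.79 and 8.87 in saline and 8.80, 8.87 and 8.77 in ethanol, and differed by -0.01 ± 0.04.

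**Figure D2:**
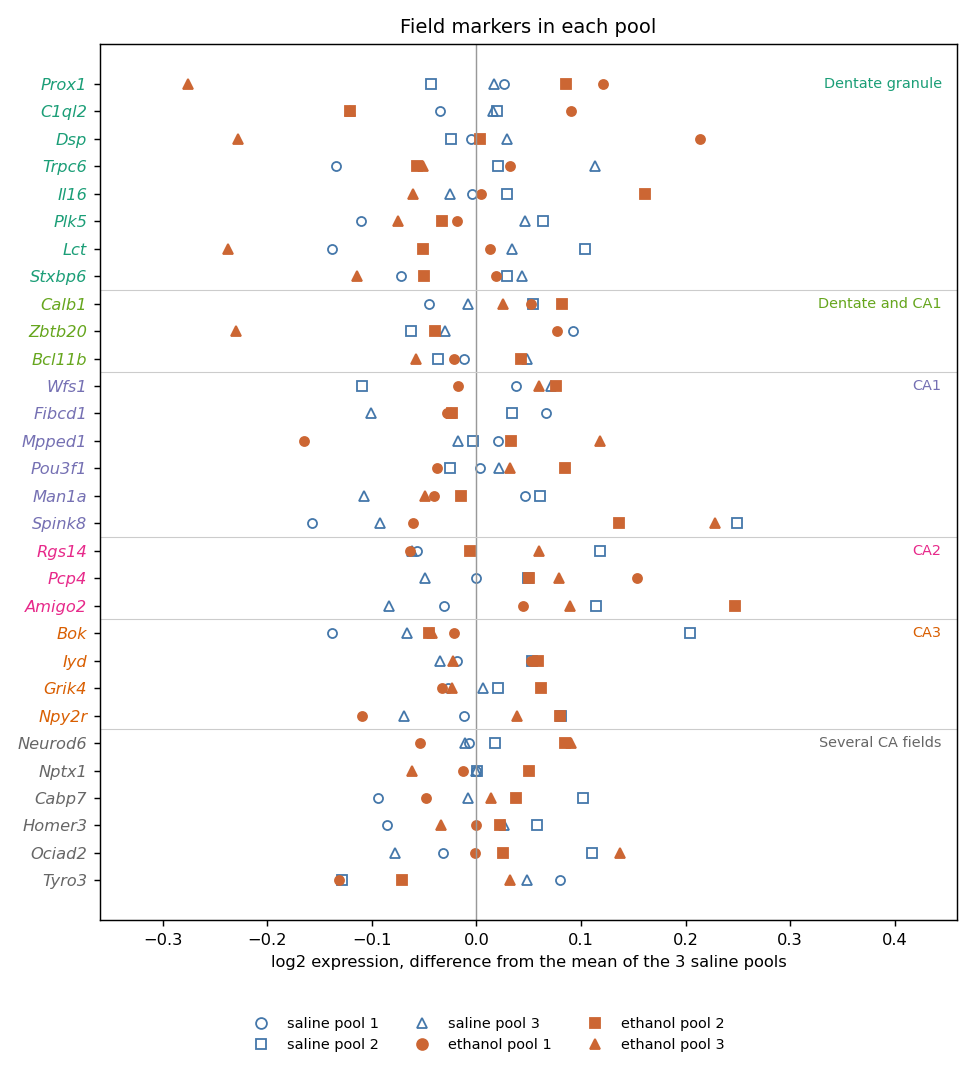
Log2 expression of each of the 30 markers in each pool, plotted on the horizontal axis relative to the saline average of that gene, with open symbols for saline and filled ones for ethanol, and genes grouped by field. Ethanol pool 1 (filled circles) lies to the right of ethanol pool 3 (filled triangles) in all granule cell markers and to the left in most CA1 markers.

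No CA1 marker passed the test, the median difference was 0.01, and most were lowest of the ethanol group in pool 1. Mpped1, a metallophosphoesterase of cortical and CA1 neurons, read 10.58, 10.56 and 10.54 in saline and 10.40, 10.59 and 10.68 in ethanol, so that its saline pools again lay between the ethanol extremes. Its means differed by -0.0044 ± 0.07, with standard deviations of 0.02 in saline and 0.15 in ethanol. Spink8, a Kazal-type protease inhibitor used as a marker of CA1 pyramidal cells, read 8.05, 8.45 and 8.11 in saline and 8.15, 8.34 and 8.43 in ethanol. Saline pool 2 was the highest of the 6, and the difference of 0.10 ± 0.11 (limma, adjusted p = 0.959) had the widest interval of the 30 genes, from 0.901-fold to 1.28-fold. Wfs1, wolframin of the endoplasmic reticulum, read 10.43, 10.28 and 10.47 in saline and 10.38, 10.47 and 10.45 in ethanol, a difference of 0.04 ± 0.06. The membrane protein Fibcd1 at -0.02 ± 0.05, the POU factor Pou3f1 at 0.03 ± 0.04 and the Golgi mannosidase Man1a at -0.04 ± 0.05 differed by less than 1 SE. Of the 6 genes, 5 were lowest of their group in ethanol pool 1, against 33.7% of all genes, and 4 were highest in ethanol pool 2, against 31.9%.

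CA2 had the highest median difference of the fields, at 0.09 over 3 genes, and none of the 3 passed the test. Amigo2, an adhesion molecule that outlines CA2, read 7.06, 7.21 and 7.01 in saline and 7.14, 7.34 and 7.19 in ethanol. Its difference of 0.13 ± 0.07 (limma, unadjusted p = 0.0995, adjusted p = 0.931) left saline pool 2 above ethanol pools 1 and 3. Pcp4, a calmodulin-binding peptide enriched in CA2 and also present in granule cells and in the thalamus, read 12.22, 12.27 and 12.17 in saline and 12.38, 12.27 and 12.30 in ethanol, a difference of 0.09 ± 0.05 (limma, unadjusted p = 0.0716, adjusted p = 0.931). It was the 1 of 30 markers whose groups did not overlap, where 10.4% of all genes had groups apart and 5.35% had them apart with ethanol higher, and its saline pool 2 and ethanol pool 2 were alike to 2 decimals. Rgs14, a signalling regulator that limits plasticity at CA2 synapses, read 8.76, 8.93 and 8.76 in saline and 8.75, 8.81 and 8.88 in ethanol, a difference of -0.0031 ± 0.06. All 3 were highest in saline pool 2 and lowest in saline pool 3 of their group.

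Pcp4 was also the field marker nearest to the threshold, and the 250 bases before its start are shown for that reason, from RefSeq on GRCm38.p6 at chr16:96467356-96467605 on the plus strand.
Pcp4: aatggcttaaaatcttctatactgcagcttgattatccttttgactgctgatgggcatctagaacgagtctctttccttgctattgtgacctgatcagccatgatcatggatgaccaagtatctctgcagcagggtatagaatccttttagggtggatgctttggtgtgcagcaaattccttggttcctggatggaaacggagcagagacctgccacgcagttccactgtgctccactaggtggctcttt
With 0 matches to either motif, this window has no capitals.

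Markers of the thalamus, where Pcp4 is also expressed, were read beside it. All 16 thalamus markers had an ethanol mean above saline, and 10 of them passed an unadjusted p of 0.05 (limma, 0 after adjustment), where 2.8% of all genes passed upward. The list was chosen with earlier results of these data known. It holds Tcf7l2 and Synpo2, which the study reported as raised on these arrays, so the count is a description and not independent support. The mean of the 16, from the saline mean, was between -0.02 and 0.02 in the saline pools and at 0.73, 0.28 and 0.11 in ethanol pools 1, 2 and 3. Choroid plexus markers, at -0.17, -0.03 and 0.20 in saline, stood at 1.06, -0.28 and 0.63 in ethanol. Ethanol pool 1 was the highest in Pcp4 and in both lists, and it was the highest ethanol pool in 7 of 8 granule cell markers. Of the 19 markers of CA1, CA2, CA3 and several CA fields 13 were lowest within ethanol in that pool, against 33.7% of all genes. These included 5 of 6 CA1 and 2 of 3 CA2 markers. Ethanol pool 2 was the lowest ethanol pool in Pcp4 and in the choroid plexus list, and the middle one in the thalamus list. The part of thalamic or choroid plexus RNA in the field marker values was not tested.

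**Figure D3:**
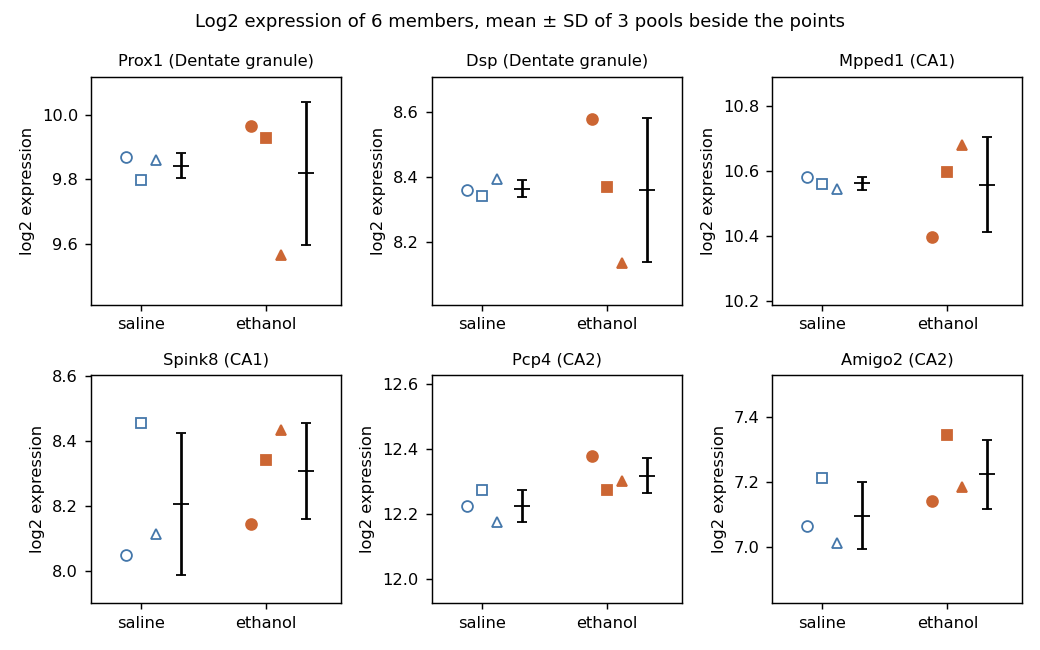
Log2 expression of 6 markers by group, with 1 symbol per pool (circle, square and triangle for pools 1, 2 and 3, open for saline and filled for ethanol) and mean ± SD of the 3 pools beside them. All panels span the same log2 range, and Prox1 and Dsp have SDs of 0.22 in ethanol against 0.04 and 0.03 in saline.

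No CA3 marker passed the test, and all 4 differences were at most 0.04 in size. Bok, a relative of the Bcl-2 regulators of cell death, read 9.09, 9.43 and 9.16 in saline and 9.21, 9.18 and 9.19 in ethanol, a difference of -0.04 ± 0.08, with saline pool 2 alone far above the others. Iyd, an iodotyrosine deiodinase, read 6.59, 6.66 and 6.57 in saline and 6.66, 6.67 and 6.59 in ethanol, a difference of 0.03 ± 0.04. Grik4, a high-affinity kainate receptor subunit of mossy fibre synapses, read 9.83, 9.88 and 9.87 in saline and 9.83, 9.92 and 9.84 in ethanol, a difference of 0.0018 ± 0.04. The Y2 receptor for neuropeptide Y, Npy2r, differed by 0.0033 ± 0.06. All 4 genes were highest in saline pool 2 within saline, where 33.5% of all genes were.

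None of the 6 genes of several CA fields passed the test. Neurod6, a basic helix-loop-helix factor of pyramidal neurons, read 10.88, 10.91 and 10.88 in saline and 10.84, 10.97 and 10.98 in ethanol, a difference of 0.04 ± 0.05. Nptx1, a pentraxin that gathers AMPA receptors, read 11.25 in each saline pool and 11.24, 11.30 and 11.19 in ethanol, a difference of -0.0082 ± 0.04. In Tyro3, a receptor tyrosine kinase, the saline values were 8.93, 8.72 and 8.90 and the ethanol values 8.72, 8.78 and 8.88, a difference of -0.06 ± 0.07. Saline pool 2 and ethanol pool 1 were its low pools. Ociad2 read 10.47, 10.61 and 10.42 in saline and 10.50, 10.52 and 10.64 in ethanol, a difference of 0.05 ± 0.06. In none of them did the groups separate. The calcium-binding protein Cabp7 at 0.0013 ± 0.06 and the synaptic scaffold Homer3 at -0.0038 ± 0.05 lay at the saline mean. Of the 6, 5 were highest in saline pool 2 and 4 were lowest of the ethanol group in pool 1.

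Of the 19 genes of CA1, CA2, CA3 and several CA fields 13 were lowest of the ethanol group in pool 1, against 33.7% of all genes, and 11 were highest in ethanol pool 2, against 31.9%. Within saline, 14 were highest in pool 2, against 33.5%, and 11 were lowest in pool 3, against 27.4%. The mean of the CA1 genes, from the saline mean, was 0.0030, 0.03 and -0.04 in saline and -0.06, 0.05 and 0.06 in ethanol, and that of the CA3 genes -0.05, 0.09 and -0.04 in saline and -0.03, 0.04 and -0.01 in ethanol. The mean of the CA2 genes was -0.03, 0.09 and -0.06 in saline and 0.04, 0.10 and 0.08 in ethanol. The dentate granule mean minus the CA1 mean was -0.06, -0.01 and 0.07 in the saline pools and 0.12, -0.06 and -0.21 in the ethanol pools. Ethanol pools 1 and 3 were thus the extremes of this difference, on opposite sides, with the saline pools between them.

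**Figure D4:**
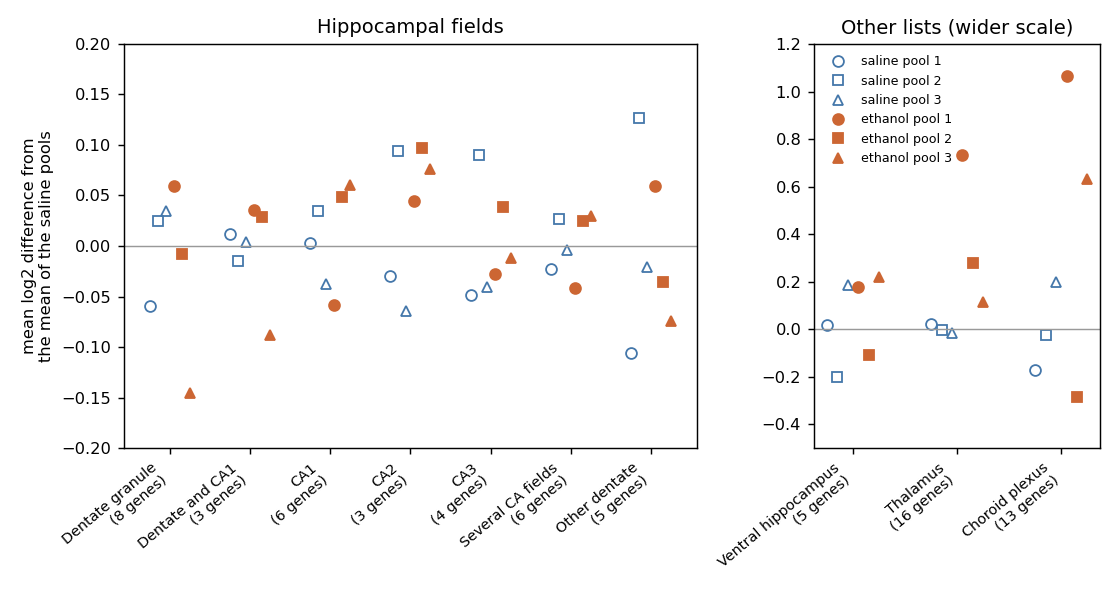
Mean log2 level of each list of markers relative to its saline average (vertical axis), with 1 symbol per pool, open for saline and filled for ethanol; the right panel has a wider scale. Dentate granule markers are highest in ethanol pool 1 and lowest in ethanol pool 3, CA1 markers are lowest in ethanol pool 1, and thalamus markers lie above the saline pools in all 3 ethanol pools.

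Most markers had a wider spread between pools than the median gene. The standard deviation within groups had a median of 0.080 over the 30 markers and 0.060 over all genes, and 21 of 30 markers were above the median of all genes. Prox1, Dsp, Lct, Zbtb20, Spink8 and Bok, 6 of the 30, were above the 90th percentile of all genes. The median SE of a difference was 0.057.

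Further genes of the same fields, listed from general knowledge and not among the 30, were read in the same way. The 23 of them that were measured are described, and the rest are not analysed here. Unadjusted, 4 passed upward and 1 downward (limma, 0 after adjustment, lowest adjusted p = 0.931), against 2.8% and 2.41% of all genes. No CA3 or ventral gene was among them. Cacng5, an AMPA receptor auxiliary subunit of CA2, read 7.34, 7.23 and 7.25 in saline and 7.48, 7.51 and 7.40 in ethanol. The groups were apart, with a difference of 0.19 ± 0.05 (limma, unadjusted p = 0.0036, adjusted p = 0.931). The CA1 gene Lefty1 differed by 0.13 ± 0.06 (limma, unadjusted p = 0.0447, adjusted p = 0.931), and it did not pass with quantile normalization, median centring or an intensity trend. Of genes known from the mossy cells of the dentate hilus, Calb2 (calretinin, which is also a thalamus marker) was at 0.20 ± 0.06, the dopamine receptor Drd2 at 0.18 ± 0.07 and Csf2rb2 at -0.14 ± 0.06 (limma, adjusted p = 0.931 for each). Csf2rb2 had a mean of 5.33, under the level of 5.37 set by the receptor genes. The pools of Calb2 and Drd2 did not overlap, and their highest value was in ethanol pool 1, as in the thalamus list, whose part in these values was not tested. With 1 pool left out, Cacng5 and Calb2 passed in every case. Drd2 did not pass without saline pool 2 (0.14) or ethanol pool 1 (0.12). Lefty1 did not pass without saline pool 2 (0.14) or 3 (0.09) or ethanol pool 1 or 2 (0.11 each), and Csf2rb2 without saline pool 1 (-0.12) or 3 (-0.11) or ethanol pool 1 or 2 (-0.11 each).

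Among the other dentate markers 0 of 5 passed, with Dock10 at -0.09 ± 0.05 and Maml2 at 0.0028 ± 0.05. Without ethanol pool 1, Dock10 was at -0.13 and passed unadjusted (limma, unadjusted p = 0.0378). Of the 5, 4 were highest in ethanol pool 1 and 3 lowest in ethanol pool 3. Of the other CA3 markers 0 of 4 passed, with Nnat at 0.05 ± 0.06 and Dkk3 at -0.05 ± 0.05. Of the 5 genes that are stronger in the ventral hippocampus 0 passed, with Dcn (also a marker of the meninges) at 0.06 ± 0.11 and Grp at 0.03 ± 0.08. These ventral genes differed between pools more than the fields did, with means of 0.02, -0.20 and 0.19 in saline and 0.18, -0.11 and 0.22 in ethanol. In ethanol 3 of the 5 were highest in pool 1 and 4 were lowest in pool 2. These were also the highest and lowest ethanol pools of the choroid plexus list. Htr2c, among them, read 8.81, 8.75 and 9.02 in saline and 9.32, 8.67 and 9.12 in ethanol. All 5 ventral genes were lowest in saline pool 2 (35.8% of all genes). The CA2 and CA3 genes among the 30 markers, and all 5 other dentate genes, were highest within saline in that pool. So were 5 of 6 genes of several CA fields and 4 of 8 granule cell markers. Of 6 CA1 markers 2 were highest and 2 lowest in it, and of 2 other CA1 genes 0 were highest. All 3 mossy cell genes were lowest in it. Of the other CA2 genes 3 of 4 were lowest in that pool, and of the other CA3 genes 1 of 4. Of the ventral genes 4 of 5 were lowest in ethanol pool 2 (33.3% of all genes), in which 11 of the 19 CA genes were highest within ethanol. The part of the dorsal and ventral share of a pool in the field marker values was not tested. Nor was the part of choroid plexus or meningeal RNA in the ventral genes tested.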

How the data were processed

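Expression was read on Mouse Gene 1.0 ST arrays (Affymetrix). The authors deposited log2 values after RMA, a method that corrects background, brings all arrays to one distribution and combines the probes of a gene. Neither the RMA software nor the genome build of the annotation is given in the sources used here. Values were used as deposited. Groups were taken from the treatment labels.

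Of 35556 probe sets, the 23410 with a gene symbol were tested together in limma 3.58.1 (lmFit, eBayes; R 4.3.3), two-sided and without covariates, after the 2-group ANOVA named in the study's methods for these arrays, and p-values were adjusted by Benjamini-Hochberg over all of them. Probe sets with several symbols (1621) were not named, and the brightest probe set stands for a gene. Counts at an unadjusted p under 0.05 are set beside the share of all 19938 genes. Levels are given in each pool for the brightest marker of a field and the 2 with the largest differences, at least. Of other lists, at most 3 passing genes, or the 2 brightest where none passed, are named. Further lists of hippocampal markers (other dentate, CA1, CA2 and CA3, ventral hippocampus and mossy cell) and 9 of other cell types were read. Members and lists were chosen with earlier results of these data known, and field assignments rest on general knowledge. The procedure was tested on simulated data.

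Alternatives were quantile normalization, median centring, a filter at the median level, probe sets averaged per gene, probe sets with 1 symbol, an intensity trend, a block by replicate number, the methods' t-test, and each array left out in turn. Littermates were divided between the treatments, but whether same-numbered pools hold littermates is not given in the sources used here. Deviations of same-numbered pools correlated at -0.049, -0.022 and 0.059, and those of differently numbered pools at -0.18 to 0.17. With so few pools these values cannot settle whether the pools were paired, and the reported fit uses no pairing. Promoter sequences are from RefSeq and were matched by symbol for 25 of the 30 genes. Figures were drawn with matplotlib 3.10.9.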

Additional observations from a re-analysis of the deposited data

How the results depend on the processing

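The number of field markers past the unadjusted threshold, 0 of 30 in the reported fit, was 1 with the replicate block (Amigo2, limma, unadjusted p = 0.0269, against 4.97% of all genes), 1 with an intensity trend (Pcp4, limma, unadjusted p = 0.0244, against 5.21%) and 0 to 3 with 1 pool left out. It was 0 with the other alternatives, where the filter at the median level removed Iyd before testing. Whether same-numbered pools are matched by litter is not known. The block moved no other call among the 30 markers but lost Cldn11 (limma, unadjusted p = 0.0673). Among the other field markers 5 passed, 1 with the methods' t-test, 3 above the median level, 3 with the intensity trend and 3 to 5 with 1 pool left out. The filter at the median level removed Lefty1 and Csf2rb2 before testing, so they were not tested there. Cacng5 passed in every alternative, and the methods' t-test lost the other 4 as well as the named thalamus and choroid plexus genes, Opalin and Cldn11, and gained Csf1r. Lefty1 was also lost with quantile normalization (0.12), median centring (0.12) and the intensity trend, and Csf2rb2 with the intensity trend. The median differences of the fields, with 1 pool left out, ranged from -0.089 to -0.013 for dentate granule, -0.040 to 0.019 for dentate and CA1, -0.013 to 0.063 for CA1, 0.065 to 0.12 for CA2, -0.030 to 0.050 for CA3 and -0.017 to 0.037 for several CA fields. Only those of dentate granule and CA2 kept their sign in these fits. Median centring also turned that of CA1 (-0.0046) and CA3 (-0.013), and quantile normalization that of several CA fields (0.0069). The sign turned, with values near 0, under quantile normalization for Dsp (0.0043), Mpped1 (0.00026) and Nptx1 (0.0011) and under median centring for Grik4 (-0.014), Npy2r (-0.012), Cabp7 (-0.014) and Maml2 (-0.013). With 1 pool left out the sign turned in 23 genes, whose log2 differences then ranged as follows: Prox1 -0.095 to 0.10, Dsp -0.11 to 0.11, Trpc6 -0.092 to 0.032, Il16 -0.028 to 0.083, Zbtb20 -0.14 to 0.019, Bcl11b -0.040 to 0.012, Wfs1 -0.015 to 0.075, Fibcd1 -0.075 to 0.0081, Mpped1 -0.066 to 0.076, Pou3f1 -0.0030 to 0.058, Rgs14 -0.035 to 0.056, Bok -0.11 to 0.066, Grik4 -0.028 to 0.019, Npy2r -0.035 to 0.060, Nptx1 -0.038 to 0.019, Cabp7 -0.046 to 0.052, Homer3 -0.046 to 0.025, Maml2 -0.035 to 0.047, Nnat -0.00037 to 0.082, Dcn -0.019 to 0.18, Grp -0.044 to 0.10, C1qb -0.024 to 0.11, Alas2 -0.13 to 0.041. The cause was not tested. With 3 pools a group and a median SE of 0.057, differences within each gene's interval remain possible, and every field was read in whole-hippocampus RNA.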

Other observations

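Markers of glutamatergic neurons and of interneurons did not pass the test either. Of 8 markers of glutamatergic neurons 0 passed an unadjusted p of 0.05 in limma, with Camk2a, the kinase of synaptic plasticity, at 0.02 ± 0.04 and Slc17a7, the vesicular glutamate transporter, at -0.02 ± 0.04. Their mean stayed between -0.04 and 0.02 in every pool. Of 10 interneuron markers 0 passed, with the neuropeptide genes Cck at 0.06 ± 0.04 and Sst at 0.10 ± 0.06.

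Among other cell types, 3 of 8 oligodendrocyte markers passed the unadjusted threshold downward, against 2.41% of all genes, and 1 of the 8 had an ethanol mean above saline. Those passing were the myelin genes Opalin at -0.21 ± 0.07, Mal at -0.15 ± 0.05 and Cldn11 at -0.12 ± 0.05. They did not pass after adjustment (limma, adjusted p = 0.931 for each). Opalin did not pass without saline pool 2 (-0.17), saline pool 3 (-0.19), ethanol pool 2 (-0.16) or ethanol pool 3 (-0.21), and Cldn11 without saline pool 2 (-0.087), saline pool 3 (-0.13), ethanol pool 1 (-0.12) or ethanol pool 2 (-0.088). None of 8 astrocyte markers passed, with Aldoc at -0.03 ± 0.04 and Slc1a2 at -0.02 ± 0.04, none of 8 microglia markers, with C1qb at 0.04 ± 0.07 and Csf1r at -0.07 ± 0.04 (past the threshold in the methods' t-test), and none of 8 markers of the meninges, with Dcn at 0.06 ± 0.11 and Igf2 at 0.29 ± 0.20. Igf2 was at 0.57 without ethanol pool 2, where it passed (limma, unadjusted p = 5.7e-05, against 5.77% of all genes), and at 0.12 without ethanol pool 1. Ethanol pool 2 was its lowest pool, as in the choroid plexus list, whose part in the Igf2 values was not tested. The red blood cell gene Alas2 was at -0.02 ± 0.09. Of the thalamus markers Ramp3 at 0.76 ± 0.26, Synpo2 at 0.72 ± 0.22 and Prkcd at 0.67 ± 0.22 had the largest differences, and of 13 choroid plexus markers Kl at 0.52 ± 0.22, Steap1 at 0.50 ± 0.20 and Kcne2 at 0.45 ± 0.19 passed unadjusted (limma, adjusted p = 0.931 for each). Without ethanol pool 1 the thalamus genes were at 0.41, 0.40 and 0.36 in that order and still passed. The choroid plexus genes did not pass without that pool, at 0.30, 0.30 and 0.25, nor without saline pool 1, saline pool 2 or ethanol pool 3.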
